A study of Mus musculus with 8 samples.

Results

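The transcripts described here are 8 noncoding genes of the mouse. Gas5, Snhg1, Snhg3, Snhg6, Snhg8 and Snhg12 are hosts of small nucleolar RNAs (snoRNAs), and Neat1 and Malat1 are long noncoding RNAs of the nucleus. They were chosen by name, and every probe set annotated to exactly 1 of them was taken, which gave 8 of 18193 named genes and 22 of the 45101 probe sets of the array. Their RNA was read in exosomes, small vesicles released into the medium by the murine mast cell line MC/9, and in the MC/9 cells themselves. There were 4 Affymetrix Mouse430_2 arrays of exosomal RNA and 4 of cell RNA, and the cells of both groups grew in medium with 10% fetal bovine serum and 10% of a rat T cell culture supplement containing concanavalin A. Exosomes came from the culture supernatant, cleared of cells at 500 g (10 min) and then of debris at 23000 g (20 min), passed through a 0.22 µm filter and pelleted by ultracentrifugation for 70 min. MC/9 is a single established line, so the arrays describe that line and not mast cells of a tissue, and serum and supplement may add RNA of other sources to the pellet. The question was which transcripts the exosomes carry compared with the cells that shed them.

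A snoRNA host gene is transcribed and spliced, its introns are trimmed into snoRNAs that guide the modification of ribosomal RNA in the nucleolus, and the joined exons are left over. Spliced hosts such as Gas5 are exported, engage ribosomes over short reading frames and are known to be degraded by nonsense-mediated decay. Many hosts begin with a run of the pyrimidines C and T, the 5′ terminal oligopyrimidine tract, which they share with messengers of ribosomal proteins. Neat1 is the scaffold of paraspeckles, and Malat1 is an abundant transcript of nuclear speckles. Both are retained in the nucleus.

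The RefSeq start sites of 5 hosts and Malat1 are shown because that pyrimidine tract is the sequence feature known for the host family. Each line runs from 35 bases before the annotated first base to 25 bases from it, on the gene's own strand, in build GRCm38.p6, and capitals mark the unbroken run of C and T that contains the first transcribed base.
Gas5, chr1:161035131-161035190, plus strand: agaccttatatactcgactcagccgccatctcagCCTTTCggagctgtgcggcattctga
Snhg1, chr19:8723452-8723511, plus strand: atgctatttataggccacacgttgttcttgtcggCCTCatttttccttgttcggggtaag
Snhg8, chr3:123508312-123508371, minus strand: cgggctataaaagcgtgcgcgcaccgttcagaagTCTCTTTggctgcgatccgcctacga
Snhg12, chr4:132308643-132308702, plus strand: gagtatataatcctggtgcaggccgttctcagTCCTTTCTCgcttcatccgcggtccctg
Snhg3, chr4:132353662-132353721, minus strand: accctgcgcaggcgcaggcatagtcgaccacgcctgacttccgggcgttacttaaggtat
Malat1, chr19:5802648-5802707, minus strand: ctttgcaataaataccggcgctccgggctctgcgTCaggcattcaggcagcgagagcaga
The run held 9 bases at Snhg12, 7 at Snhg8, 6 at Gas5, 4 at Snhg1 and 2 at Malat1, including bases before the annotated start. Counted from the first transcribed base on, it held 6, 6, 5, 3 and 1. At Snhg3 the annotated first base was not a C or T. Of 32851 RefSeq start sites, 3.03% had a run of at least 9 such bases, counted in the first way, 5.28% at least 7, 7.25% at least 6, 14.0% at least 4 and 24.4% at least 2. Gas5 has another RefSeq start, without such a run. The tract describes these letters and was not set against the array signals. Snhg6 and Neat1 are named here without a sequence.

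The whole series sets how a low signal can be read. The deposited signals have a 2% trimmed mean of 100 on every array, and each array was given a detection floor, set at the 95th percentile of 150 probe sets for sensory receptors, keratin-associated proteins and beta-defensins. The floor was 246 to 336 on exosome arrays and 10.5 to 16.5 on cell arrays, and 3.39% to 8.56% of probe sets passed it in exosomes against 45.2% to 50.3% in cells. The probe sets for 18S ribosomal RNA had mean log2 signals of 8.88 to 11.8 on exosome arrays and 4.09 to 5.44 on cell arrays, and replicates correlated at 0.466 to 0.576 among exosome arrays and 0.929 to 0.983 among cell arrays (Pearson, log2, across tested probe sets, which are not independent replicates). The part of these differences in the results was not tested. Mast cell markers were above the floor for 9 or 10 of 10 genes on each cell array and for 0 to 4 on each exosome array, with a summed signal of 38939 to 40982 in cells and 1379 to 1979 in exosomes. The lists of other cell types had 0 or 1 of 7 T cell genes (summed signal 17.5 to 38.1), 2 of 6 macrophage genes (51.9 to 68.4), 0 or 1 of 5 fibroblast genes (17.5 to 26.6) and 2 or 3 of 4 erythroid genes (212 to 286) above the floor on a cell array. On exosome arrays the summed signals of those lists were 336 to 509, 560 to 924, 403 to 914 and 260 to 587, with at most 1 gene of a list above the floor of an array, and the part of such cells was not tested. Cd2, Cd28, Cd3d, Cd3e, Cd3g and Cd4 of the T cell list were above the floor on no array. By the hybridisation date in the array files, replicates 1 and 2 of both groups form batch 1 and replicates 3 and 4 batch 2. The arrays are labelled biological replicates. Whether each had a culture of its own is not given in the labels, and the p-values therefore cover the spread between these arrays, which may be technical.

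Most probe sets of the noncoding transcripts passed the detection floor in cells, and few exosome readings passed the higher floor there. Of the 22 probe sets, 18 passed the floor of each of the 4 cell arrays and were tested, and none of the 22 passed that of each of the 4 exosome arrays. Of 88 exosome readings, 3 passed the floor, 1 of Snhg3 and 2 of a Malat1 probe set. Among the 18 tested, 12 were called lower in exosomes, 0 were called higher and 6 were not called (limma on log2 of signal + 4, Benjamini-Hochberg adjusted p under 0.05). At an unadjusted p under 0.05, 13 were lower and 0 higher, but the share of all probe sets at that threshold was not worked out. The groups did not overlap, with exosomes lower, on 13 of the 18 and, with exosomes higher, on 0, against 37.2% and 16.4% of all probe sets tested. All 18 entered the test through their cell signal, so these counts leave out the 4 probe sets that passed the floor of 1 or 2 cell arrays only. Of those 4, Neat1 1442881_at and Malat1 1452378_at read higher in exosomes without overlap, at signals under the exosome floor. Over all 20219 probe sets tested, 37.5% were called lower and 17.9% higher. The median log2 difference, exosomes minus cells, was -2.60 over the 18 and -0.69 over all tested. All 18 passed the floor of every cell array, as did 18067 of the 20219 tested. The shares and medians therefore rest on sets that the filter shaped differently. On 17 of the 18 no exosome array passed the floor, and 81.6% of all probe sets measured on every cell array were the same in this. Since an array reads pooled RNA, fewer vesicles that carry a transcript and less of it in each vesicle cannot be told apart.

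Because the exosome floor is high, a difference gave a bound only where the cell signal itself exceeded that floor. That held for 8 of the 12 probe sets called lower, and their bounds are given below as the geometric mean signal of the cells over that of the exosome floors, on the deposited scaling. No bound was worked out under another scaling. The median log2 difference of all tested moved from -0.69 to 0.29 when the probe sets that pass the floor of each of the 8 arrays set the scale. All bounds given here, the larger ones too, may therefore be lower under that scaling, and the smaller ones may not hold at all. For the other 4 called lower, a probe set each of Gas5 and Malat1 and a pair of Snhg1, the cell signal was under the exosome floor. Their log2 differences compare cell signals with exosome readings that cannot be told from background.

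Gas5, the growth-arrest transcript that hosts box C/D snoRNAs, was bright in cells on 2 of its 4 probe sets. Its probe set 1419291_x_at read 2406, 2265, 3147 and 3223 in the cells of replicates 1 to 4, and 54.3, 60.6, 45.0 and 80.1 in the exosomes. All cell arrays lay far above all exosome arrays, and no exosome array reached its floor. The means were 2760 ± 495 in cells and 59.99 ± 14.84 in exosomes (SD, n = 4). That placed Gas5 at least 9.72-fold lower in exosomes (log2 difference -5.44 ± 0.29 SE, limma adjusted p = 8.42e-07). On the cell arrays this probe set ranked at percentiles 98.94 to 99.05 of all signals, and on the exosome arrays at percentiles 33.97 to 48.22.

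The second bright Gas5 probe set, 1449410_a_at, gave 1997, 1998, 2875 and 3618 in cells and 109, 60.4, 119 and 5.00 in exosomes. The groups again did not overlap, and Gas5 was at least 9.05-fold lower by this probe set (log2 difference -5.58, limma adjusted p = 0.000101). The other 2 Gas5 probe sets were dim in cells, with 213 ± 20.6 for 1436222_at and 148 ± 32.7 for 1424843_a_at (SD, n = 4). They had log2 differences of -2.22 (limma adjusted p = 0.00466) and -1.60 (limma adjusted p = 0.069), so the first was called and the second was not. The first lost its call when the probe sets that pass every floor set the scale (limma adjusted p = 0.072). The second was called with 4 of 6 scalings and without exosome replicate 1 (limma adjusted p = 0.037), and its difference was -0.85 without exosome replicate 2.

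Snhg1, host of several box C/D snoRNAs, was called lower on all 5 of its probe sets. The brightest in cells, 1433674_a_at, read 719, 644, 1100 and 1029 in cells and 35.5, 12.1, 10.8 and 12.01 in exosomes. The highest exosome reading was 14.5% of its floor, and the groups were widely separated. The transcript was at least 3.03-fold lower in exosomes (log2 difference -5.44 ± 0.42 SE, limma adjusted p = 4.32e-06). Probe set 1439399_a_at gave 571, 535, 932 and 1045 in cells and 150, 158, 72.1 and 37.7 in exosomes, a bound of at least 2.63-fold. For 1433675_at the bound was at least 2.32-fold, where cells averaged 668 ± 182 and exosomes 80.9 ± 56.9 (SD, n = 4). These 2 had limma adjusted p = 0.000391 and 0.000421. The remaining pair, 1437658_a_at and 1454703_x_at, read 154 ± 14.1 and 108 ± 10.6 in cells (SD, n = 4), where no bound exists. The call of 1454703_x_at (limma adjusted p = 0.049) was lost without any single one of 6 of the 8 arrays, all except exosome replicates 2 and 3, and with the hybridisation batch as a block (limma adjusted p = 0.057).

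Snhg8 and Snhg6 had 1 probe set each, and both followed Gas5. Snhg8, the host of an H/ACA snoRNA, read 1124, 1106, 1782 and 1742 in cells and 15.8, 74.7, 4.62 and 17.7 in exosomes. Its highest exosome reading was well under the floor of that array, and it was at least 5.00-fold lower (log2 difference -5.92 ± 0.59 SE, limma adjusted p = 1.80e-05). Snhg6 read 446, 403, 677 and 684 in cells and 6.16, 7.25, 14.1 and 8.96 in exosomes. All exosome readings were far under the floor, and Snhg6 was at least 1.91-fold lower (log2 difference -5.40 ± 0.40 SE, limma adjusted p = 3.37e-06). The bound is small because the cell signal of 552 ± 149 (SD, n = 4) was less than 3 times the exosome floor.

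Snhg3 and Snhg12 were the hosts that did not pass the test. Snhg3, the host of the H/ACA snoRNA U17, read 102, 120, 116 and 125 in cells and 142, 303, 160 and 116 in exosomes. The groups overlapped, and only exosome replicate 2 passed its floor. The log2 difference was 0.53 ± 0.38 SE (limma adjusted p = 0.26), positive with 3 of 6 scalings of the arrays and negative with the other 3. Of these scalings, 2 called it lower and 1 called it higher. Snhg12 read 124, 94.4, 152 and 108 in cells and 238, 145, 41.3 and 105 in exosomes, all of the latter under the floor. Its log2 difference was -0.08 ± 0.51 SE (limma adjusted p = 0.91), and 2 of 6 scalings called it lower. The cell signals of both hosts lay under the exosome floor, so a lower level in exosomes was not detectable.

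**Figure D1:**
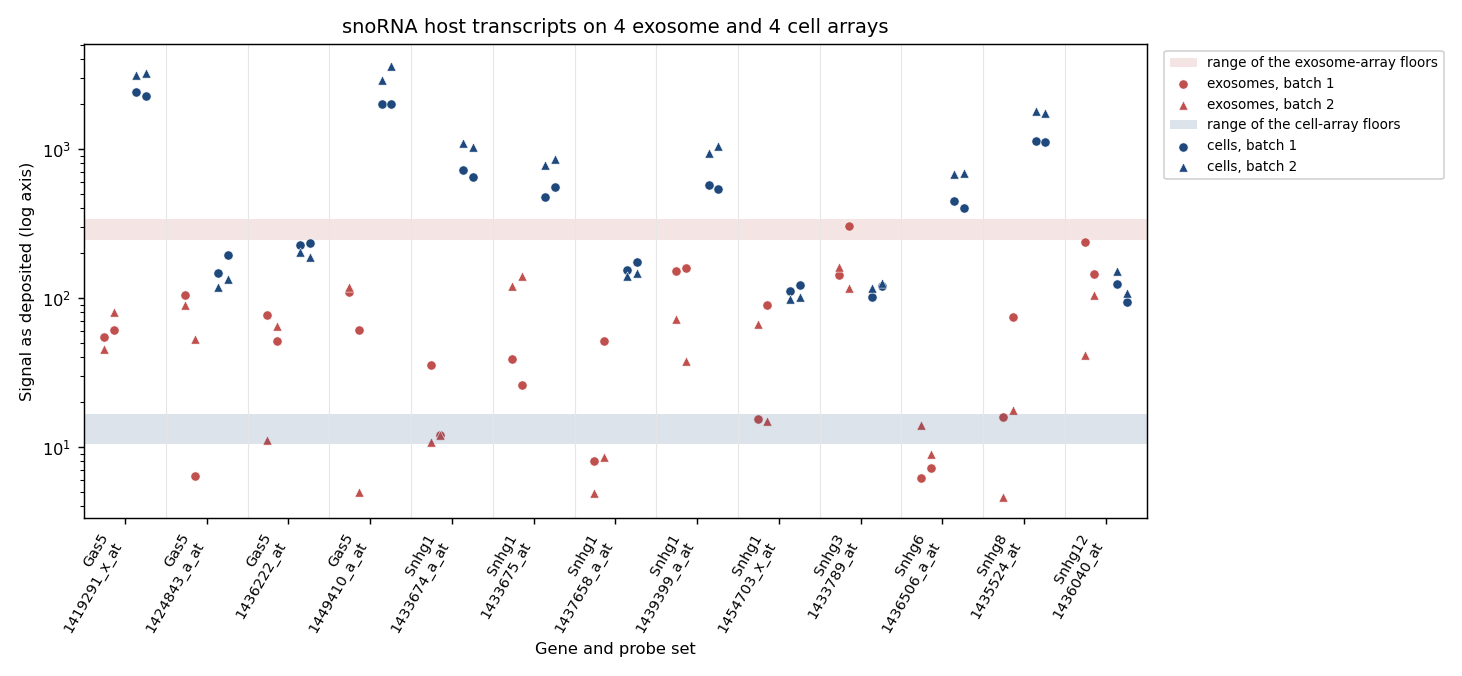
Signal of the 13 snoRNA host probe sets on each array (log axis, deposited scale), exosomes in red and cells in blue, with circles for batch 1 and triangles for batch 2. Bands span the detection floors of the 4 arrays of a group, and each exosome point lies under the floor of its own array except 1 of Snhg3.

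A further 2 probe sets carry several symbols, a host and a snoRNA within it, and are not assigned to a gene. One of them, 1447896_s_at, read 445, 375, 176 and 184 in exosomes and 3205, 3284, 4451 and 4708 in cells. It passed the floor on both exosome arrays of batch 1 and on neither of batch 2. Its log2 difference was -3.81 (limma adjusted p = 1.16e-05). The other, 1455904_at, read 51.0 ± 26.05 in exosomes, under every floor, and 980 ± 119 in cells (SD, n = 4). The bound was at least 3.48-fold lower in exosomes.

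Neat1, the paraspeckle scaffold, was lower in exosomes on the probe set that detects it in cells. Probe set 1428083_at read 2159, 2141, 1082 and 1235 in cells and 180, 40.6, 8.70 and 24.4 in exosomes. No exosome array passed the floor, and the groups did not overlap. Neat1 was at least 5.62-fold lower (log2 difference -5.25 ± 0.69 SE, limma adjusted p = 0.000112). The second Neat1 probe set, 1442881_at, was not tested, since it passed the floor of 1 cell array and of no exosome array. It read 172 ± 53.4 in exosomes and 11.9 ± 5.76 in cells (SD, n = 4). The groups did not overlap, with exosomes higher by 3.44 within batch 1 and 3.52 within batch 2 on the log2 scale, and every exosome reading was under its floor.

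Malat1, the nuclear speckle transcript, had 7 probe sets, and they disagreed. Of the 4 tested, 1 was called lower and 3 were not called. The called one, 1429060_at, read 228, 220, 248 and 240 in cells and 146, 118, 124 and 94.9 in exosomes. Its groups did not overlap, but the cell signal was under the exosome floor, the log2 difference was -0.95 ± 0.31 SE (limma adjusted p = 0.023), and its sign turned, to 0.08, when the probe sets that pass the floor of each of the 8 arrays set the scale. The call was also lost without cell replicate 1, 3 or 4 and with the replicate number as a block (limma adjusted p = 0.070).

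The brightest Malat1 probe set, 1436202_at, read 962, 863, 69.3 and 107 in cells and 102, 110, 153 and 87.7 in exosomes. The first 2 cell arrays stood far above every exosome array, and the other 2 did not. The pooled log2 difference of -1.32 ± 0.79 SE did not pass on the deposited scaling (limma adjusted p = 0.18), but 4 of 6 scalings called the probe set lower. On the deposited scaling the log2 difference was -3.06 within batch 1 and 0.41 within batch 2. The difference between those values, 3.47 on the log2 scale, passed as an interaction of group and batch (limma adjusted p = 0.030), as it did for 3.69% of all probe sets tested. In a fit of batch 1 alone the probe set was called lower (limma adjusted p = 0.00287), and in the fit of all arrays it was called without cell replicate 3 (limma adjusted p = 0.040). Among the 18 tested, 1436202_at was the single probe set with such an interaction.

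Probe sets 1418188_a_at and 1418189_s_at of Malat1 followed the same split of the cell arrays. They read 138, 156, 21.9 and 13.2, and 169, 265, 28.9 and 29.5 in cells. In exosomes they read 169, 101, 4.90 and 93.6, and 140, 112, 4.90 and 51.2. The exosome arrays of batch 2 read lower as well, by log2 differences of -2.19 and -2.55 that did not pass (limma adjusted p = 0.24 and 0.11). Between exosomes and cells the log2 differences were 0.16 and -0.66 (limma adjusted p = 0.90 and 0.59). Each of these probe sets was called lower with 2 of 6 scalings. The 3 probe sets not tested were 1438403_s_at, 1427285_s_at and 1452378_at, each above the floor on the 2 cell arrays of batch 1 alone. Of these, 1438403_s_at read 375, 631, 8.99 and 2.21 in cells and 258, 327, 7.77 and 53.3 in exosomes, and was the one Malat1 probe set with exosome readings above the floor, on both arrays of batch 1. Probe set 1427285_s_at read 14.4 ± 14.1 in cells and 15.5 ± 5.67 in exosomes (SD, n = 4), and the groups overlapped. Probe set 1452378_at read 22.9, 29.7, 8.95 and 5.71 in cells and 170, 65.7, 57.1 and 163 in exosomes. Its exosome readings were all higher than its cell readings and all under the floor.

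**Figure D2:**
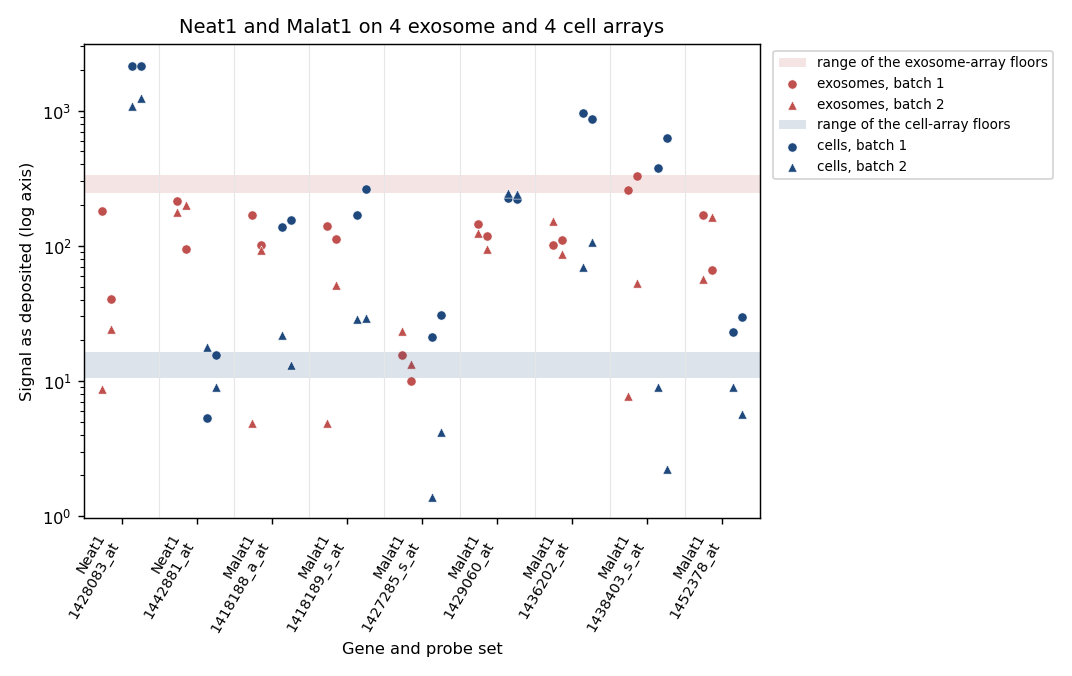
Signal of the 2 Neat1 and 7 Malat1 probe sets on each array (log axis, deposited scale), exosomes in red, cells in blue, circles for batch 1 and triangles for batch 2, with bands for the range of the floors of each group. On 6 of the 7 Malat1 probe sets both batch 2 cell arrays lie below both batch 1 cell arrays, while 1429060_at stays between 220 and 248 on all 4.

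How far the groups differed depended on the scaling of the arrays. With the deposited scaling the median log2 difference over all tested probe sets was -0.69. It was -1.51 with quantile normalization, -2.36 once the background median was taken off, -3.84 and -4.72 when poly-A or hybridisation controls set the scale, and 0.29 when the 432 probe sets that passed the floor of each of the 8 arrays set it. Of all tested probe sets, 7585 were called lower and 3616 higher with the deposited scaling, against 9654 and 1482, 11040 and 1588, 16040 and 291, 19060 and 253, and 4383 and 5795 with those scalings in turn. For the noncoding transcripts, 9 of the 12 probe sets called lower were called lower under all 6 scalings. The share of the 7585 of all tested that stayed lower under all 6 was not worked out. These 9 were the bright pair of Gas5, 4 of Snhg1 (all but 1454703_x_at), and the tested ones of Snhg6, Snhg8 and Neat1. Among them Snhg1 1437658_a_at had a cell signal under the exosome floor and no bound. Its call was lost in batch 1 alone (limma adjusted p = 0.069), and its difference turned to 0.85 with signals set to the floor. Relative to the median of all tested probe sets, Gas5 1419291_x_at stood at -6.387 to -4.004, Snhg8 at -5.38 to -4.39, Snhg6 at -4.777 to -3.9998 and Neat1 1428083_at at -4.82 to -3.64 over the scalings. Snhg3 stood at 0.93 to 2.06 and Snhg12 at 0.38 to 0.82, above the median under each of the 6. The cell signals of both lay under the exosome floor, so their place relative to the median rests mostly on exosome readings that cannot be told from background.

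**Figure D3:**
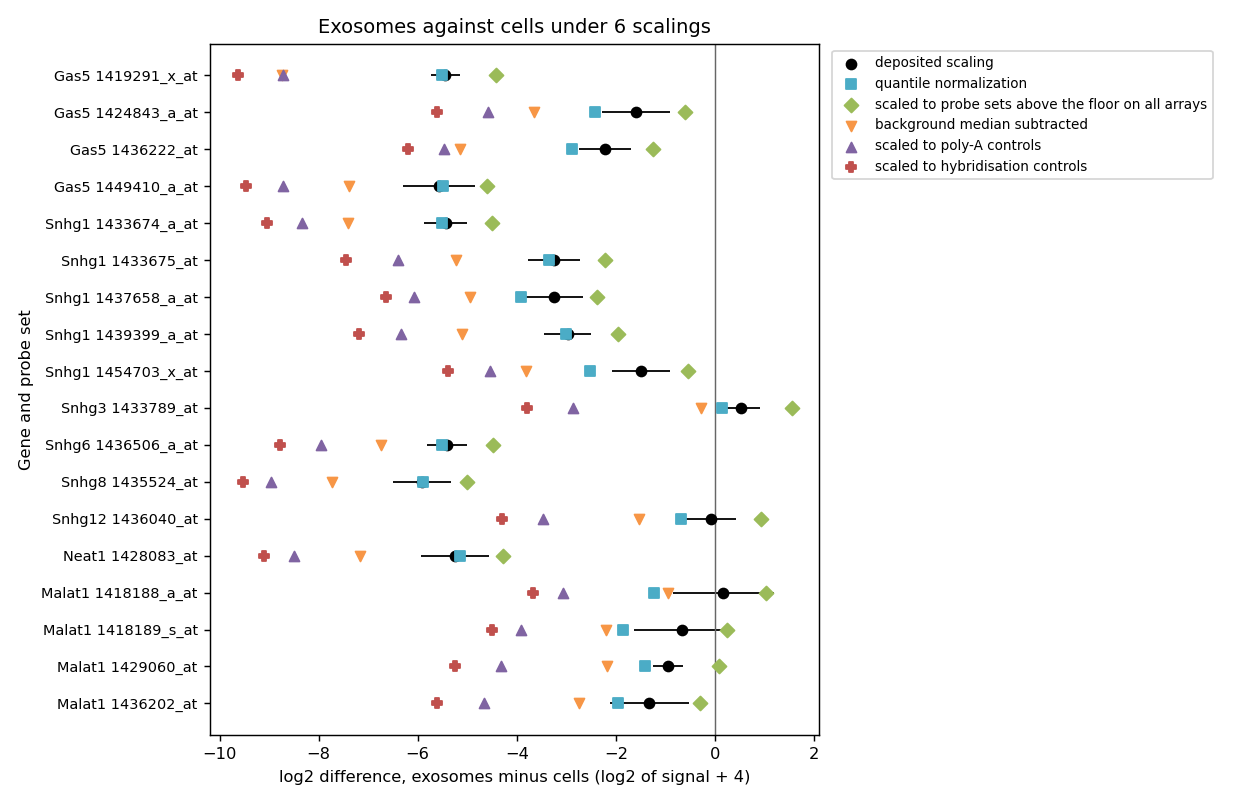
Log2 difference, exosomes minus cells, of the 18 tested probe sets (vertical axis) under 6 scalings of the arrays, with bars for the standard error of the deposited scaling. Gas5 1419291_x_at, Snhg6, Snhg8 and Neat1 stay below -4 under every scaling, while Snhg3, Snhg12, Malat1 1418188_a_at, 1418189_s_at and 1429060_at lie on both sides of 0.

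Within the cells the transcripts split by hybridisation batch, a comparison added after the values were seen. On the deposited scaling, 6 of the 7 Malat1 probe sets and Neat1 1428083_at read lower in batch 2 and the bright host probe sets higher, but when poly-A controls set the scale Neat1 turned higher too, and when hybridisation controls set it the hosts other than Snhg1 1439399_a_at turned lower. The dim host probe sets of Gas5 and Snhg1 did not follow the bright ones. Their log2 differences were -0.41 and -0.22 for 1424843_a_at and 1436222_at of Gas5, and -0.18 and -0.21 for 1437658_a_at and 1454703_x_at of Snhg1. These 4 read lower on both batch 2 cell arrays than on both of batch 1. Snhg3 and Snhg12, also dim in cells, differed by 0.12 and 0.24, and their batches overlapped. Of the 13 host probe sets 9 had a higher mean in batch 2 and 4 a lower one. The log2 difference in cells, batch 2 minus batch 1, was -3.34 for Malat1 1436202_at, -2.83 for 1418188_a_at, -2.70 for 1418189_s_at and -0.89 for Neat1 1428083_at. It was 0.83, 0.67 and 0.64 for the 3 bright Snhg1 probe sets, 0.68 for Snhg6, 0.66 for Snhg8, and 0.69 and 0.45 for the bright pair of Gas5. Over all tested probe sets the median was -0.11, and the 5th and 95th percentiles were -1.64 and 0.69. As signals, Neat1 averaged 2150 in batch 1 and 1158 in batch 2, and Malat1 1436202_at 913 and 88.1. Snhg8 averaged 1115 and 1762, and Gas5 1449410_a_at 1997 and 3246. Probe set 1429060_at of Malat1, at 224 and 244, did not read lower in batch 2.

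In the fit of all 8 arrays, which shares the wider spread of the exosome arrays, 0 of the 18 passed for this contrast in cells. Over all tested, 0.0643% were called lower and 0.00495% higher (limma adjusted p under 0.05). At an unadjusted p under 0.05, 3 of the 18 were lower and 0 higher, and the share of all tested at that threshold was not worked out. In a fit of the 4 cell arrays alone, 4 were called lower, namely Neat1 1428083_at and the 3 Malat1 probe sets, and 7 higher, the 7 host probe sets above, where 23.5% and 15.0% of all tested were called. Scaled to the hybridisation controls that fit called 11 lower and 0 higher, beside 15010 and 178 of the 20219 tested. Scaled to the poly-A controls it called 0 and 14, beside 10 and 15740 of all tested. Relative to the median of all tested, Malat1 1436202_at stood at -3.37 to -3.23 and Neat1 at -1.28 to -0.73 under 4 scalings of the cell arrays. On that scale Snhg8 stood at 0.30 to 0.82 and Gas5 1449410_a_at at 0.24 to 0.85, and Gas5 1419291_x_at at -0.02 to 0.61, turning sign with quantile normalization. The poly-A controls, added to the RNA before labelling, moved with the batches too, with mean log2 signals of 7.65 and 7.73 in batch 1 cells and 4.67 and 5.85 in batch 2 cells, and their part in the split was not tested.

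**Figure D4:**
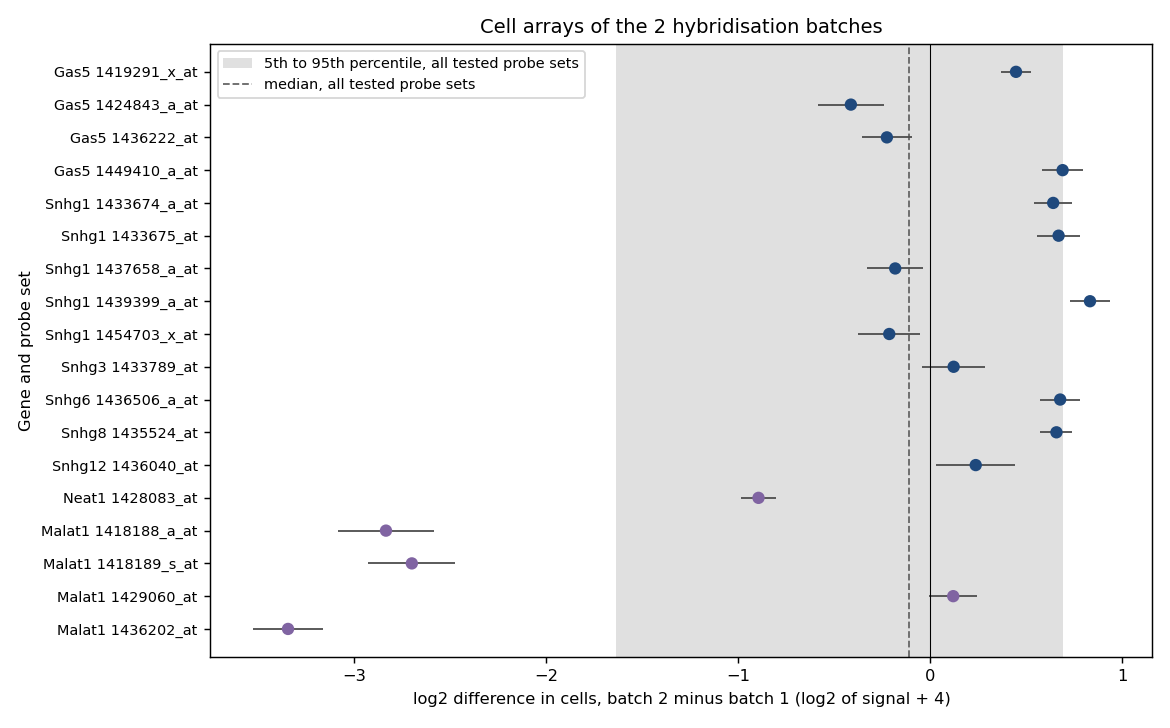
Log2 difference between the cell arrays of batch 2 and batch 1 for the 18 tested probe sets, hosts in blue and Neat1 and Malat1 in purple, with bars for the standard error in the fit of the cell arrays alone. The grey band spans the 5th to 95th percentile of all tested probe sets, -1.64 to 0.69, and the dashed line is their median, -0.11. Malat1 1436202_at, 1418188_a_at and 1418189_s_at lie to the left of the band on the deposited scaling drawn here.

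In the exosomes the batches differed for 2 of the 18 tested probe sets, both of Snhg1 and in opposite directions, beside 9.54% of all tested. Probe set 1433675_at was higher in batch 2 by 1.90 on the log2 scale and 1439399_a_at differed by -1.49 (limma adjusted p = 0.017 and 0.047). All 8 exosome readings behind these values were under the floor.

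Other noncoding hosts and nuclear RNAs of the same classes gave the following values, with 1 probe set per gene. Here and in the lists below, that was the probe set with the highest mean log2 value. The shares beside them cover all probe sets tested, dim ones too, so counts and shares do not rest on like sets. Of 7 tested noncoding hosts, 4 were called lower, 0 higher and 3 were not called, with a median log2 difference of -1.27, beside 37.5% and 17.9% of all tested probe sets called lower and higher. The count was 7 lower when hybridisation controls set the scale, and 1 lower and 1 higher when the probe sets that pass every floor did. Zfas1, a host of box C/D snoRNAs, read 470, 525, 1249 and 1021 in cells and 83.4 ± 43.0 in exosomes (SD, n = 4). It was at least 2.67-fold lower. Snhg4 fell by 2.05 on the log2 scale, from a cell signal under the exosome floor. Of 8 other nuclear long noncoding RNAs, 2 were called lower, 2 higher and 4 were not called, with a median of -0.61. Quantile normalization gave 6 lower and 2 higher, the hybridisation controls 7 and 0, and the probe sets that pass every floor 1 and 2. Tug1 was at least 2.09-fold lower and Pvt1 fell by 2.37 on the log2 scale, again from a cell signal under the exosome floor. The 2 called higher, Meg3 and Jpx, were named after their values were seen. Meg3, an imprinted transcript, read 340 ± 98.4 in exosomes, above the floor on 3 arrays, and 14.5 ± 5.78 in cells (SD, n = 4). Above the floor on 2 cell arrays only, Meg3 entered the test through the exosome arrays, where it reads high, so its call is not separate from the filter. The log2 rise was 4.22, and 0.09 with the scaling least in its favour. Jpx, an activator of Xist, rose by 2.53 but passed no exosome floor, and its sign turned with 2 of 6 scalings.

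Coding genes that host snoRNAs, or whose proteins bind them, were read in the same way. Of 17 tested protein-coding snoRNA hosts, 16 fell, 0 rose and 1 was not called, with a median log2 difference of -2.44, beside the 37.5% called lower over all tested probe sets. The number lower was 10 with quantile normalization and 10 when the probe sets that pass every floor set the scale. Of them 7 (Eef2, Hspa8, Rpl13a, Rpl7a, Rps2, Rps20 and Rpsa) passed the floor of every exosome array, as did 2.39% of all probe sets measured on every cell array and none of the 8 noncoding genes. Ncl, which encodes nucleolin, was at least 9.59-fold lower, and Eef1b2, a subunit of a translation elongation factor, fell by 4.94 on the log2 scale with 1 exosome array above the floor. All 7 tested snoRNP protein genes fell, beside the same 37.5% of all tested, which were not picked by highest mean as the list's probe sets were. The largest falls named were Nhp2, at least 4.90-fold lower, and Gar1, at least 1.90-fold lower, both of the H/ACA particle. The number lower was 6 with quantile normalization and 5 when the probe sets that pass every floor set the scale. Nop56 and Nop58 were chosen for both the host list and the snoRNP list, so these counts are not separate results.

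The proteins of the nuclear bodies that Neat1 and Malat1 belong to were counted next. Of 13 tested paraspeckle genes, 10 fell, 1 rose and 2 were not called, beside 37.5% and 17.9% of all tested probe sets called lower and higher. Quantile normalization gave 9 lower and 0 higher, and the probe sets that pass every floor 9 and 1. Hnrnpk fell by 3.74 on the log2 scale and was above the floor on 2 exosome arrays, and Tardbp was at least 2.18-fold lower. Taf15, which rose by 1.57 and was named after its value was seen, changed sign under 4 of 6 scalings and passed no exosome floor. Of 12 nuclear speckle genes, 10 fell and 2 were not called, with the splicing factor Srsf1 at least 6.29-fold lower and Luc7l3 at least 3.68-fold lower. The number of speckle genes lower was 9 with quantile normalization and 7 when the probe sets that pass every floor set the scale. Of 9 tested genes for nonsense-mediated decay, 2 fell, 0 rose and 7 were not called, a share under the 37.5% of all tested probe sets. There were 4 lower with quantile normalization, 9 with hybridisation controls, and 1 lower and 1 higher when the probe sets that pass every floor set the scale. Rbm8a, a subunit of the exon junction complex, was at least 4.63-fold lower, and Casc3, of the same complex, fell by 2.23 on the log2 scale with a cell signal under the exosome floor. The genes of these lists called lower and named here kept their sign under all 6 scalings. Medians of the snoRNP, paraspeckle, speckle and decay lists were -2.79, -2.50, -2.69 and -0.71, beside -0.69 over all tested probe sets.

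Across the 8 arrays, the genes whose log2 profile lay nearest to that of Gas5 1419291_x_at, after each profile was centred on its own mean, were Ube2d2a, Smu1 and Puf60. Their root-mean-square distances were 0.21, 0.22 and 0.23, of 17485 probe sets compared. The nearest to Malat1 1436202_at were Mapk14, Id2 and Tmem164, at distances of 0.48, 0.49 and 0.51, so no profile lay as near to Malat1 as these did to Gas5. None of these 6 passed an exosome floor.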

How the data were processed

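Biotinylated cRNA from 5 µg of total RNA per array was hybridised, per the labels' protocols. The authors deposited 1 linear intensity per probe set and array, made with GCOS per the submitters' processing notes. How probes were summarised and background removed is not stated there. Of the probe sets, 34945 have 1 gene symbol, 932 several and 9160 none. Of those with 1 symbol, 34741 matched RefSeq (GRCm38.p6) by gene ID. A probe set was tested if above the array floor on at least 3 of 4 arrays of either group. The 64 controls were not tested. The comparison used limma 3.58.1 (R 4.3.3), with lmFit and a trended eBayes, on log2(signal + 4), which understates changes of dim probe sets, at an adjusted p of 0.05. For a list, the probe set with the highest mean log2 value stood for a gene. Up to 2 falls and 2 rises per list, with all arrays of the higher group above the floor, were to be named. No rise met this, and those named were chosen after their values were seen. The members and lists were chosen with earlier results of these data known. Replicate numbers did not pair the arrays (correlation of deviations -0.074 to 0.008). Alternatives covered the pseudocount, filter, floor, scaling, blocks, batches and single arrays. The number of arrays limits the precision, and no molecule counts exist.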

Additional observations from a re-analysis of the deposited data

Results flagged for a closer look

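In 44 groups of 4 arrays tested with Dixon's criterion, 2 held an array apart from the other 3, where chance alone gives about 1 in 20. Both were Snhg1 in exosomes and under the floor. Probe set 1433674_a_at read 35.5 on exosome replicate 1, against 10.8 to 12.1 on the others. Probe set 1437658_a_at read 51.1 on exosome replicate 2, against 4.87 to 8.60 on the others. For Malat1 1436202_at the difference between exosomes and cells changed between the hybridisation batches by 3.47 on the log2 scale (limma interaction, adjusted p = 0.030), with cell signals of 962 and 863 in batch 1 and 69.3 and 107 in batch 2.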

How the results depend on the processing

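Of the 18 tested probe sets, 12 were called lower, and 10 to 12 without each single array (6691 to 7708 of all lower and 2873 to 3748 higher). With the hybridisation batch as a block 11 were called lower. With the replicate block 10 were called lower, 7422 of all lower and 3342 higher. The number called lower ran, over all alternatives, from 8 with signals raised to the floor to 18 with either control scaling. Called higher were 2 without a filter, 1 with scaling to the common probe sets (those that pass every floor) and 8 with signals set to the floor, which lifts exosome readings above dim cell signals by construction. Of all probe sets, 26590 were higher with no filter, 1723 with the 99th percentile floor, 1482 with quantile normalization, 1588 after background subtraction, 253 with hybridisation controls (19060 lower), 291 with poly-A controls (16040 lower), 5795 with scaling to common probe sets (4383 lower) and 13670 with signals set to the floor (4125 lower).

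Signals set to the floor turned Gas5 1424843_a_at to 0.93, Gas5 1436222_at to 0.40, Snhg1 1437658_a_at to 0.85 and 1454703_x_at to 1.35, Snhg12 to 1.22, and Malat1 1418189_s_at to 1.75 and 1429060_at to 0.26. Scaling to common probe sets turned Malat1 1429060_at to 0.077. Hybridisation and poly-A control scaling turned Snhg3 to -3.79 and -2.87 and Malat1 1418188_a_at to -3.68 and -3.06. The cause of the turns under control scaling was not tested. For the added contrast of cell batches, 0 lower and 0 higher became 4 and 7 with the cell arrays alone, also with pseudocount 16. They became 4 and 6 with quantile normalization, 11 lower with hybridisation controls and 14 higher with poly-A controls. Of all tested, 4760 were lower and 3042 higher with the cell arrays alone, and 3213 and 3615 with quantile normalization. The hybridisation controls gave 15010 lower over all tested, and the poly-A controls 15740 higher.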

Other observations

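The batch split of the cell arrays was also read for noncoding genes outside the 8, as values chosen after they were seen. Zfas1 read 470 and 525 in batch 1 cells and 1249 and 1021 in batch 2 cells, and Snhg4 read 195 and 182 against 319 and 283, both higher in batch 2. Snhg17 went the other way, with 43.3 and 44.0 against 31.6 and 33.5, and Snhg16 read 128 and 89.9 against 97.5 and 110. Kcnq1ot1, an imprinted nuclear transcript, read 303 and 285 against 134 and 131, lower in batch 2. Tug1 read 611 and 676 against 506 and 558, and Pvt1 read 203 and 194 against 205 and 223. In the fit of all 8 arrays no adjusted p of these contrasts in cells passed (limma adjusted p = 0.58 for Zfas1, 0.51 for Kcnq1ot1 and 1.0 for Snhg4, Snhg16, Snhg17, Tug1 and Pvt1).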
